A study of Mus musculus with 10 samples.

Results

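The genes described here encode the constitutive proteasome, its regulatory cap and their assembly factors in mouse alveolar type II (AT2) cells, the surfactant-making epithelial cells of the lung alveolus. They were taken from a deposited table of 16154 genes as every row whose gene symbol begins with Psma, Psmb, Psmc, Psmd, Psmf or Psmg and a digit, leaving out the inducible subunits Psmb8, Psmb9 and Psmb10, and 41 rows met that rule. Of these, 39 are known as genes of the standard proteasome, its assembly or its control. Psmc3ip meets the letters of the rule but encodes HOP2, a factor of meiotic recombination, and Psmb11 encodes the beta subunit of the thymus form.

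The polyA RNA of AT2 cells sorted from the lungs of C57BL/6 mice aged 8 to 10 weeks was sequenced in 10 libraries, each carrying a mouse number of its own. The 5 HOILKO libraries (replicates 1 to 5) have the genotype label HOIL-1L -/-, while the design text names them CreSPC/HOIL-1L fl/fl, a deletion driven by Cre from the surfactant protein C promoter. The 5 WT libraries (replicates 2 to 6) are labelled wild type, and the sources used here do not say whether WT mice carried Cre or floxed alleles, nor what the letter N in every title stands for. HOIL-1L is encoded by Rbck1 and belongs to LUBAC, the ligase that builds linear ubiquitin chains.

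The proteasome degrades proteins that carry ubiquitin chains. Its barrel, the 20S core, stacks rings of alpha and beta subunits, and the beta subunits encoded by Psmb5, Psmb6 and Psmb7 hold the cutting sites. The 19S cap binds ubiquitin, removes it and unfolds the substrate with a ring of ATPases, and chaperones that leave the finished particle help to assemble core and cap.

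Values are the authors' normalized counts, divided here by the mean column total in M (mega) and written per M. Rbck1 was at 59.3, 29.8, 36.4, 38.0 and 38.8 per M in HOILKO libraries 1 to 5, against 29.7, 56.7, 57.8, 56.1 and 56.6 per M in WT libraries 2 to 6. The libraries labelled HOILKO 1 and WT 2 therefore go against their labels, and the comparisons of genotypes were made in all 10 libraries as labelled and again in the 8 without those 2 libraries. A fold change with no set named is that of the 10 libraries. No source used here names the deleted exons. HOILKO 2, HOILKO 3 and WT 2 were female by Xist, and the other 7 libraries were male, so in the 8 libraries every WT mouse was male. The mouse numbers form an earlier run (HOILKO 1 to 3, WT 2 and 3) and a later run (HOILKO 4 and 5, WT 4 to 6), which the labels do not call batches. All 10 AT2 markers passed the filter on low values, and their summed level was 212567 to 247847 per M in HOILKO and 213942 to 255804 per M in WT. Lymphocyte markers with a row were at 0 to 0.121 per M in HOILKO and 0 to 0.297 per M in WT. In bulk samples, fewer cells of a type and less RNA per cell cannot be told apart.

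No proteasome gene passed the test between genotypes. Of the 41 genes, 40 reached 1 per M in 5 or more of the 10 libraries and were tested, and Psmb11 was below that filter. With all 10 libraries, 0 of 40 passed limma at an adjusted p under 0.05, beside 0% of the 12946 genes tested. Their log2 fold changes (HOILKO minus WT) were small and mostly of one sign: 37 of 40 lay below 0, beside 48.7% of all genes tested, with a median of -0.13, which is -8.62% as a percent change. The median over all genes tested was 0.0053. At an unadjusted p under 0.05, 7 of 40 lay below 0, beside 3.28% of all genes tested, and 0 lay above it, beside 6.2%. The 7 were Psmc4, Psmd13, Psmb7, Psmc5, Psmb1, Psmd6 and Psmd8. The 95% intervals left out a 1.5-fold difference in either direction for 39 of 40 genes, the exception being Psmg3.

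**Figure D1:**
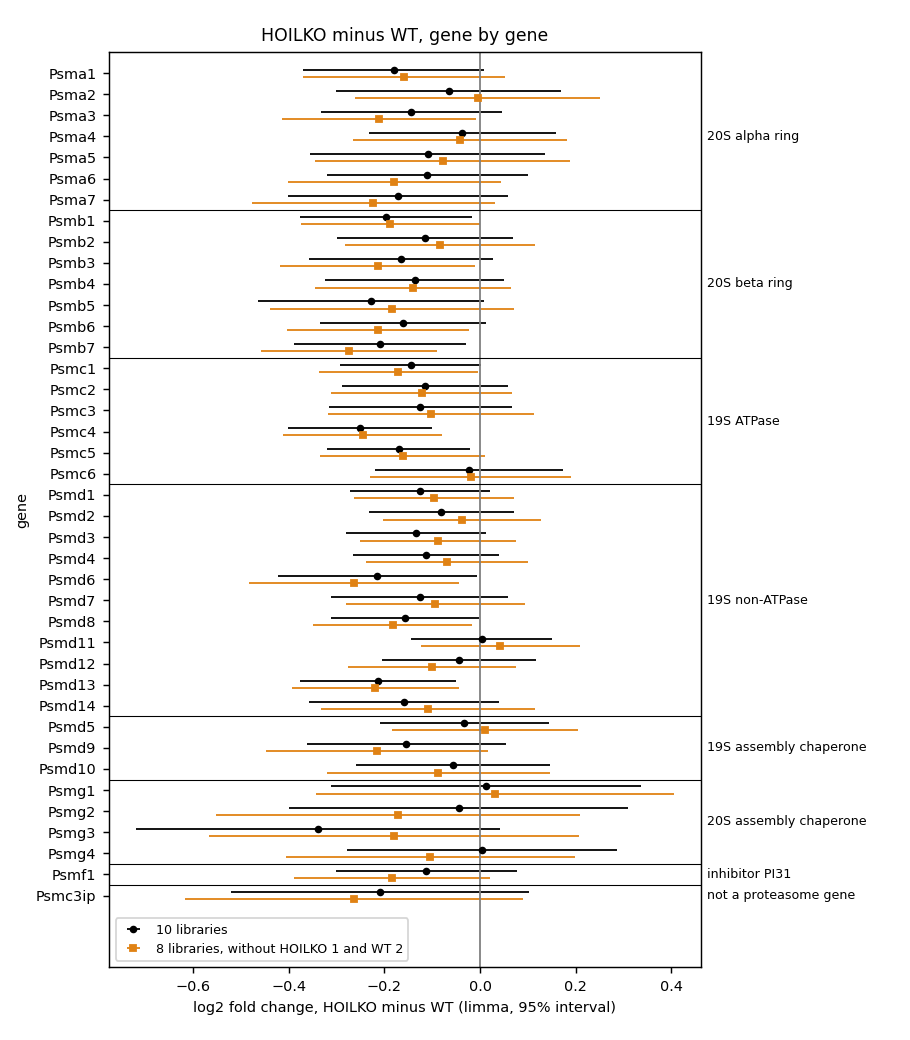
Log2 fold change, HOILKO minus WT, of the 40 tested genes with its 95% interval, grouped by role, in all 10 libraries and in the 8 without WT 2 and HOILKO 1. Most points lie between -0.3 and 0, 37 of 40 are below 0 in either set, and no gene passed at an adjusted p under 0.05.

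Without WT 2 and HOILKO 1, 0 of 40 passed limma at an adjusted p under 0.05 again, beside 0.402% of all genes tested (0.116% lower and 0.286% higher), and the smallest adjusted p was 0.2003, for Psmb7. Here too 37 of 40 lay below 0, beside 49.9% of all genes tested, with a median of -0.15. At an unadjusted p under 0.05, 10 of 40 lay below 0, beside 5.25% of all genes tested, and 0 above it, beside 7.84%. Within the later run alone, which holds neither WT 2 nor HOILKO 1, the median was -0.16. Within the earlier run alone, which holds both as labelled, it was -0.17. Limma called 0 of 40 in each, beside 0.317% of all genes tested in the later run (0.17% lower) and 0% in the earlier run.

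The promoters of 3 genes on which later results turn are shown, those of the catalytic subunits Psmb5 and Psmb6 and of the cap ATPase Psmc4. Capitals mark matches of the motifs TGACNNNGC, TGANNNNGC or CCAAT, searched on both strands; the first is a core of the antioxidant response element to which Nfe2l1, the known activator of proteasome genes, binds, and every match of it is also a match of the second. Each run is the 100 bases before the RefSeq transcription start, 5′ to 3′ on the gene's own strand, in GRCm38.p6, at chr14:54617996-54618095 (minus strand) for Psmb5, chr11:70525257-70525356 (plus) for Psmb6 and chr7:28050093-28050192 (minus) for Psmc4. The last bases of the Psmb5 and Psmc4 stretches lie inside the gene as GENCODE bounds it.
Psmb5: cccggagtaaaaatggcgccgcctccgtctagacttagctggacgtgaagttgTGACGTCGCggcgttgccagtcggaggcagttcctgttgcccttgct
Psmb6: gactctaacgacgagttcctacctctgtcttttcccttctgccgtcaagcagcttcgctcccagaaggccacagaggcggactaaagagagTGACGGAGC
Psmc4: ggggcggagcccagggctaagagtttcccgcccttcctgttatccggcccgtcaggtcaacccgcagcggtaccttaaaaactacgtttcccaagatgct
Psmb5 and Psmb6 each have 1 match of TGACNNNGC, and Psmc4 has no match of the 3 motifs in its stretch.

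RefSeq promoter windows (250 bases before to 50 after the start) were matched by symbol for 34 of 41 genes, with 36 windows. TGACNNNGC occurred in 13.9% of these windows and in 12.4% of the 32851 windows of all genes. The looser TGANNNNGC occurred in 58.3% and in 41.3%. CCAAT was found in 36.1% of the proteasome windows and 37.4% of all windows, while GGGCGG, the box bound by Sp1, was found in 52.8% and 35.7%. A match is a stretch of letters only and no binding was measured.

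The beta ring had the highest median level per kb of merged exons of any role class, at 32.2 per M per kb. Summed over both rings, the core reached 1065, 1028, 985, 915 and 895 per M in HOILKO libraries 1 to 5 and 1134, 1166, 1237, 1001 and 908 per M in WT libraries 2 to 6. The groups overlapped, since WT 5 and WT 6 lay within the HOILKO range while WT 2, 3 and 4 lay above it. WT 2, whose Rbck1 level was like that of most HOILKO libraries, was thus above every HOILKO library on this sum. All 14 log2 fold changes were below 0, with a median of -0.15 (-0.18 in the 8 libraries, again with 14 below 0). With the trend on exon length removed, 1 of the 14, Psma4, was above 0, at 0.010.

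Among the beta subunits, some of which carry the active sites, the 7 log2 fold changes ran between -0.23 and -0.11 with a median of -0.17. Psmb5, the chymotrypsin-like subunit (ENSMUSG00000022193, chr14:54614119-54618022, minus strand, mm10), was at 68.8, 73.2, 66.6, 58.7 and 66.2 per M in HOILKO against 91.1, 87.4, 92.5, 61.8 and 63.4 per M in WT. WT 2, 3 and 4 stood above every HOILKO library, and WT 5 and WT 6 lay inside the HOILKO range. Its log2 fold change was -0.23 ± 0.11 (SE, n = 5 each), with a limma adjusted p of 0.541, and -0.18 in the 8 libraries (limma adjusted p = 0.529).

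Psmb6, the caspase-like subunit (ENSMUSG00000018286, chr11:70525367-70527858, plus strand), was at 97.01, 91.4, 86.9, 80.6 and 79.6 per M in HOILKO against 93.7, 108, 110, 90.6 and 86.0 per M in WT. The ranges overlapped, and the log2 fold change was -0.16 ± 0.08 (limma adjusted p = 0.570), and -0.21 in 8 libraries (limma adjusted p = 0.322). Psmb7, the trypsin-like subunit (ENSMUSG00000026750, chr2:38588036-38644087, minus strand), was at 94.0, 80.6, 77.1, 77.8 and 70.9 per M in HOILKO against 90.7, 99.4, 101, 93.2 and 78.7 per M in WT. HOILKO 1, which goes against its label, was the highest HOILKO library for both genes. WT 2, which does so too, lay below HOILKO 1 and above the other HOILKO libraries for both. The log2 fold change of Psmb7 was -0.21 ± 0.08 in 10 libraries (limma adjusted p = 0.477) and -0.27 ± 0.09 in 8 (limma adjusted p = 0.2003).

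The other beta subunits are structural. Psmb1 was at 97.3, 92.6, 87.6, 84.9 and 79.5 per M in HOILKO and 114, 106, 109, 95.04 and 84.1 per M in WT, with a log2 fold change of -0.20 ± 0.09 (limma adjusted p = 0.503) and of -0.19 in 8 libraries (limma adjusted p = 0.380). Its 3 highest libraries were WT 2, 3 and 4, and the groups overlapped. Psmb4 was at 110 to 134.5 per M in HOILKO and 110 to 158 per M in WT, while Psmb2 and Psmb3 had log2 fold changes of -0.11 and -0.17.

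The alpha subunits form the outer rings that gate the barrel. Psma1 was at 46.4, 46.7, 42.5, 39.9 and 48.1 per M in HOILKO against 56.0, 54.3, 55.9, 44.7 and 43.8 per M in WT (log2 fold change -0.18 ± 0.09, limma adjusted p = 0.544). Psma3 was at 85.4, 80.7, 79.0, 78.5 and 74.7 per M in HOILKO against 78.3, 97.02, 106, 88.3 and 74.0 per M in WT, a log2 fold change of -0.14 ± 0.09 with a limma adjusted p of 0.625. In both genes the WT libraries spread further than the HOILKO libraries. Psma6, the alpha subunit with the highest level per kb of merged exons, was at 82.7, 71.3, 74.4, 63.4 and 64.1 per M in HOILKO against 73.5, 85.1, 91.96, 71.0 and 64.0 per M in WT, a log2 fold change of -0.11 ± 0.10 (limma adjusted p = 0.744). Of the remaining alpha subunits, Psma2 had a log2 fold change of -0.07, Psma4 of -0.04, Psma5 of -0.11 and Psma7 of -0.17, so that all 7 lay between -0.18 and -0.04. In the 8 libraries the median of the alpha subunits was -0.16, with -0.16 for Psma1, -0.21 for Psma3 and -0.18 for Psma6.

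The 17 cap subunits were at a summed 1091, 1095, 1050, 1009 and 1037 per M in HOILKO and 1237, 1213, 1190, 1078 and 1061 per M in WT. Only WT 6 and WT 5 lay within the HOILKO range on this sum. Of the 17 log2 fold changes, 16 were below 0, with a median of -0.13, and the exception was Psmd11. In the 8 libraries 16 were below 0 too, with a median of -0.10. With TMM or median-ratio factors all 17 were below 0. With equal totals Psmc6, at 0.0033, was above 0 beside Psmd11.

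Among the 6 ATPases, which unfold substrates and open the core, Psmc4 (ENSMUSG00000030603, chr7:28041707-28050101, minus strand) had the smallest p of all 40 genes. It was at 48.1, 46.0, 44.0, 44.99 and 42.3 per M in HOILKO and 58.2, 53.4, 51.4, 49.8 and 56.0 per M in WT, so every HOILKO library lay below every WT library. That held for 1 of 40 genes, beside 0.633% of all genes tested, and HOILKO lay wholly above WT in 0 of 40, beside 0.958%. Leaving out 1 library gave 2 such genes without HOILKO 1, HOILKO 3 or WT 5, beside 1.73%, 0.85% and 1.31% of all genes tested in that order. It gave 3 without HOILKO 2 or WT 6, beside 1.07% and 1.74%. The log2 fold change of Psmc4 was -0.25 ± 0.07 (95% interval -0.40 to -0.10), with an unadjusted p of 0.00256 and a limma adjusted p of 0.314, and again -0.25 in 8 libraries (limma adjusted p = 0.209). Psmc5 was at 43.9, 46.4, 49.98, 44.5 and 47.0 per M in HOILKO against 50.5, 56.6, 54.4, 50.5 and 49.0 per M in WT, a log2 fold change of -0.17 ± 0.07 with a limma adjusted p of 0.488. In Psmc5 the groups met only between HOILKO 3 and WT 6. The other ATPases had log2 fold changes of -0.14 for Psmc1, -0.11 for Psmc2, -0.12 for Psmc3 and -0.02 for Psmc6.

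In the 8 libraries, HOILKO lay wholly below WT in 3 genes (Psmc4, Psmd13 and Psmf1), beside 2.87% of all genes tested, and wholly above WT in 0, beside 3.85%. The count of lower genes was 13 without WT 6, beside 6.99% of all genes tested, and 8 without HOILKO 2, beside 5.16%. It was 5 without HOILKO 3, HOILKO 5 or WT 5, beside 4.08%, 4.54% and 5.01% in that order.

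**Figure D2:**
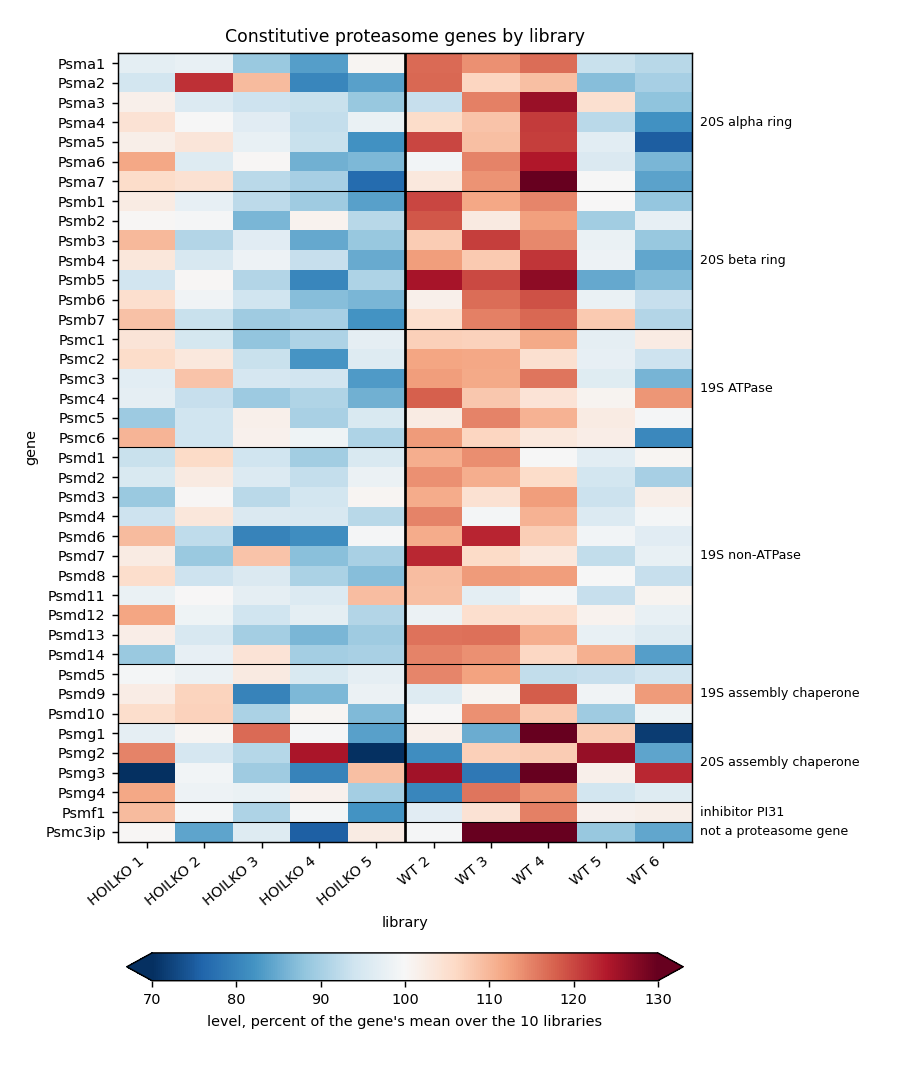
Level of each of the 40 tested genes in each library as a percent of the gene's own mean over 10 libraries, HOILKO libraries left of WT libraries and genes grouped by role. WT 2, 3 and 4 are above 100 for most genes, and HOILKO 4 and 5 are below 100 for most.

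The cap also holds a ubiquitin receptor and a deubiquitinase, which did not pass either. Psmd4, whose protein Rpn10 binds ubiquitin chains, was at 51.0, 56.2, 51.9, 51.7 and 49.8 per M in HOILKO and 62.4, 54.0, 59.9, 52.1 and 54.0 per M in WT. Psmd14, which encodes the metalloprotease that cuts chains from the substrate, was at 29.3, 32.1, 34.3, 29.6 and 29.7 per M in HOILKO and 37.8, 37.4, 35.0, 36.4 and 27.5 per M in WT. WT 6 was the lowest of all libraries for Psmd14, and the other WT libraries lay above all HOILKO libraries. The log2 fold changes were -0.11 ± 0.07 for Psmd4 (limma adjusted p = 0.637) and -0.16 ± 0.09 for Psmd14 (limma adjusted p = 0.606), and -0.07 and -0.11 in the 8 libraries.

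Psmd13 and Psmd6, further subunits of the lid, had the smallest p-values among the 11 non-ATPase genes. Psmd13 was at 68.9, 64.3, 60.7, 58.3 and 60.4 per M in HOILKO and 78.7, 78.7, 74.9, 66.1 and 64.99 per M in WT (log2 fold change -0.21 ± 0.08, limma adjusted p = 0.398). Only HOILKO 1 reached into the WT range. Psmd6 was at 37.3, 31.5, 27.3, 27.8 and 34.0 per M in HOILKO and 37.8, 41.8, 36.6, 33.8 and 32.9 per M in WT (log2 fold change -0.21 ± 0.10, limma adjusted p = 0.512). In the 8 libraries the log2 fold changes were -0.22 for Psmd13 (limma adjusted p = 0.277) and -0.26 for Psmd6 (limma adjusted p = 0.294). Psmd2, the scaffold subunit that binds shuttle factors, was at 143, 154, 144, 139 and 147 per M in HOILKO and 171, 166, 158, 142 and 135.2 per M in WT. WT 2, 3 and 4 again lay above every HOILKO library and WT 5 and 6 did not, and its log2 fold change was -0.08 ± 0.07. Psmd11, which also lies in the lid, varied least over the 10 libraries. It was at 52.4, 53.4, 51.9, 51.2 and 58.3 per M in HOILKO and 58.2, 51.9, 53.0, 49.7 and 53.8 per M in WT, with a log2 fold change of 0.00 (95% interval -0.14 to 0.15) that took either sign under other settings. Of the remaining non-ATPase genes, Psmd8 had a log2 fold change of -0.16 (limma adjusted p = 0.524), Psmd1, Psmd3 and Psmd7 had -0.13 each and Psmd12 had -0.04.

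The assembly chaperones had median log2 fold changes of -0.06 for the 3 of the cap and -0.02 for the 4 of the core. In the 8 libraries these medians were -0.09 and -0.14. Of the cap chaperones, Psmd9 was at 25.3, 26.4, 19.8, 21.4 and 24.3 per M in HOILKO and 23.7, 24.9, 29.2, 24.4 and 27.9 per M in WT. Psmd10 was at 21.8, 22.2, 18.8, 20.9 and 18.0 per M in HOILKO and 20.8, 23.5, 22.3, 18.5 and 20.5 per M in WT. The groups overlapped widely in both, with log2 fold changes of -0.15 ± 0.10 and -0.06 ± 0.10.

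The core chaperones Psmg2, Psmg3 and Psmg4 were each below 10 per M in every library. Psmg3 was at 3.22, 5.39, 4.86, 4.35 and 5.93 per M in HOILKO and 6.81, 4.27, 7.37, 5.52 and 6.67 per M in WT. Its log2 fold change was -0.34 ± 0.18, the farthest from 0 of the 40 (limma adjusted p = 0.579). In the 8 libraries it was -0.18 (limma adjusted p = 0.711), and Psmb7, at -0.27, was the farthest from 0. Psmg4 was at 7.61, 6.70, 6.68, 6.90 and 6.12 per M in HOILKO and 5.48, 7.91, 7.73, 6.44 and 6.54 per M in WT, with a log2 fold change of 0.00 ± 0.13 that was negative under other scalings and -0.10 in the 8 libraries. Psmg2 was at 4.87 to 8.94 per M in HOILKO and 5.84 to 9.07 per M in WT, and Psmg1, their fellow core chaperone, at 7.79 to 10.9 per M in HOILKO and 6.64 to 12.7 per M in WT (log2 fold change 0.01 ± 0.15). Psmf1, the inhibitor protein PI31, was at 30.7, 27.9, 25.4, 27.9 and 23.1 per M in HOILKO and 27.1, 29.3, 32.3, 28.4 and 28.6 per M in WT.

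The 2 genes outside the standard particle were low. Psmc3ip was at 10.6, 8.86, 10.1, 7.96 and 10.8 per M in HOILKO and 10.5, 13.9, 14.4, 9.33 and 8.89 per M in WT, with a log2 fold change of -0.21 ± 0.15 (limma adjusted p = 0.666). Psmb11 was at 0 to 0.235 per M in HOILKO and 0 to 1.96 per M in WT, where WT 3 alone was above 1 per M.

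The order of levels is given per kb of merged exons, averaged over all 10 libraries. Psmb5 led with 81.2 ± 14.1 per M per kb (SD, n = 10), ahead of Psmb4 with 66.6 ± 7.84 and Psma6 with 60.1 ± 7.87 per M per kb. The gap between Psmb4 and Psma6 was smaller than 1 SD, whereas those after Psmb5 and after Psma6 were larger. Psmb6 was at 49.4 ± 5.49 per M per kb and Psmd2, at the head of the cap subunits, at 37.1 ± 2.94. The low end held 5 of the 7 chaperones and the inhibitor, with Psmg1 at 6.91, Psmd5 at 4.45, Psmf1 at 4.36, Psmg2 at 4.14, Psmd9 at 3.41 and Psmg3 at 1.88 per M per kb, beside Psmc3ip at 5.79 and, lowest of all, Psmb11 at 0.057. The chaperones Psmd10, at 14.1, and Psmg4, at 12.3 per M per kb, stood above some cap subunits.

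The core subunits, which occur in equal numbers in the particle, spanned 5.01-fold per kb, between Psma1 at 16.2 and Psmb5 at 81.2 per M per kb. That span was 3.97-fold with the length of the principal transcript in place of all merged exons, and the order then began with Psmb6, Psmb4 and Psmb3. On that length Psma7, at 74.7 per M per kb, stood above Psma6, at 71.2. Merged exons include every annotated isoform, so an unused long isoform lowers a value.

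**Figure D3:**
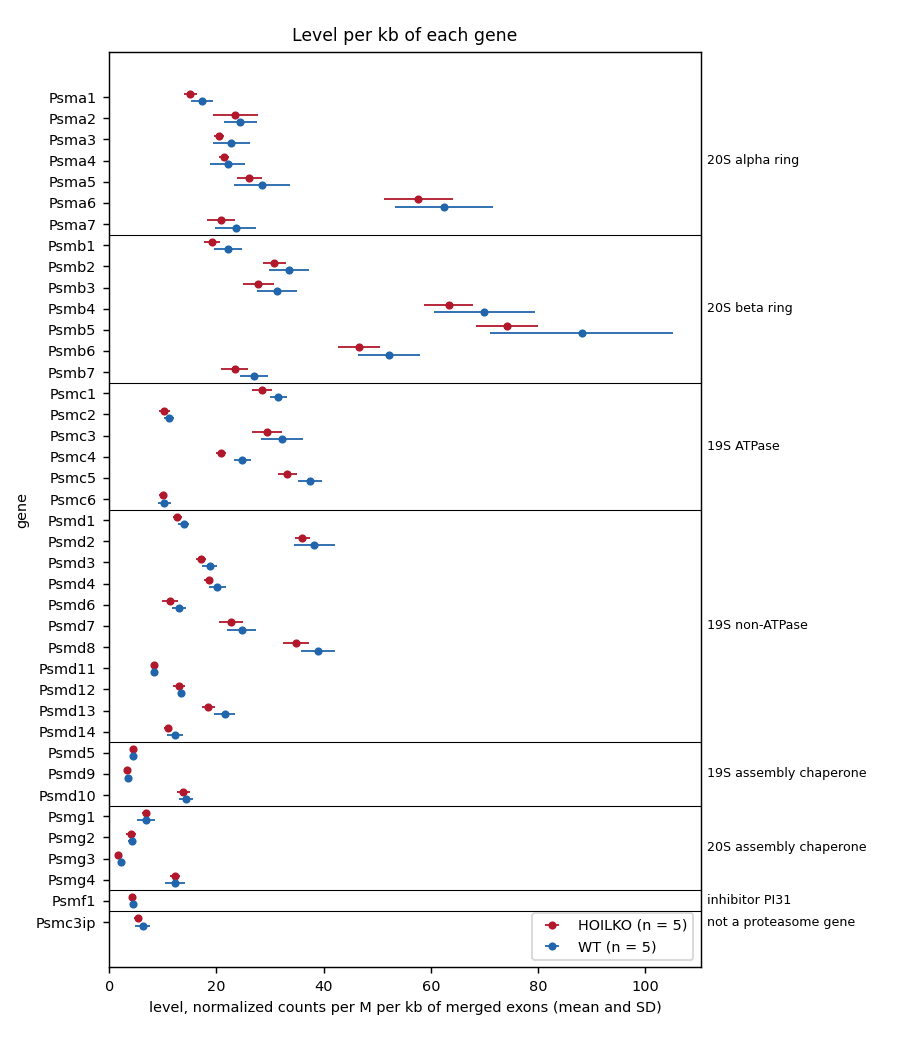
Level of each gene per M per kb of merged exons on a linear axis that starts at 0, HOILKO above WT; points are means and bars the SD of 5 libraries. Psmb5 stands highest, and Psmg1, Psmc3ip, Psmd5, Psmf1, Psmg2, Psmd9 and Psmg3 stand at the low end.

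The genes varied together across libraries. The median level as a percent of each gene's own mean was 102, 98.6, 94.0, 90.6 and 90.2 in HOILKO 1 to 5 and 111, 111, 112, 97.7 and 93.1 in WT 2 to 6. WT 4 was the highest library for 17 of 40 genes, WT 2 for 11 and WT 3 for 8, while HOILKO 5 was the lowest for 12, HOILKO 4 for 10 and WT 6 for 8. Over all genes tested the same median stayed between 98.8 and 100.4. In values with depth already evened out, such a median varies little in any case. It is thus no measure of how far other sets of genes vary together.

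The 4 libraries with the highest medians (HOILKO 1 and WT 2, 3 and 4) were also the 4 with the largest deposited column totals. Those totals were 7.43 M in HOILKO 1 and 7.30, 7.35 and 7.39 M in WT 2, 3 and 4, and the other 6 libraries lay between 6.94 and 7.04 M. They also had the most Sftpc, the AT2 surfactant protein gene, at 138822 to 147854 per M against 110469 to 125603 per M in the other 6. With the totals made equal, the median log2 fold change of the 40 genes was -0.10, with 36 below 0, and the median over all genes tested was 0.03. With each library's trend on exon length removed, the median was -0.10, with 35 below 0. The part of Sftpc or of AT2 content in this order was not tested.

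**Figure D4:**
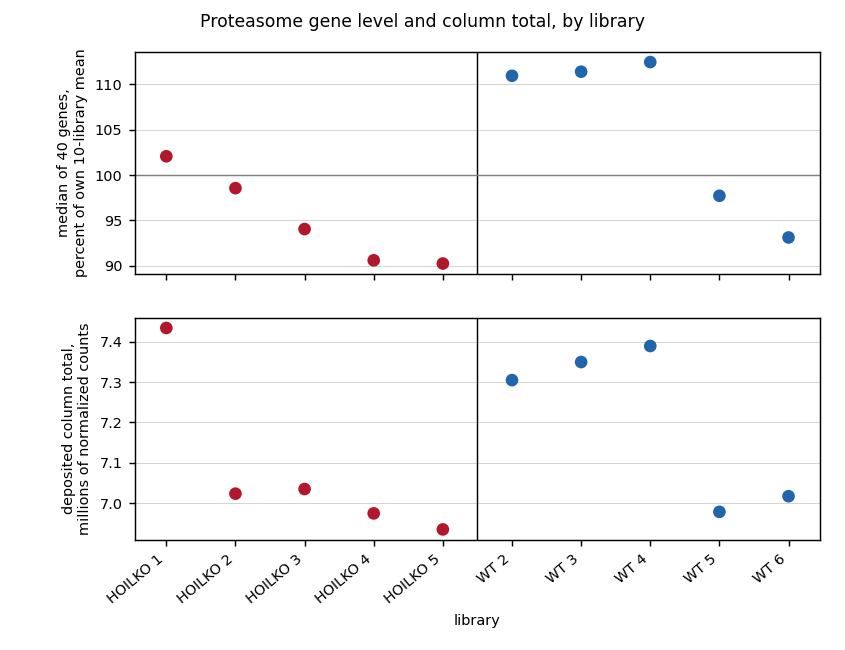
Median level of the 40 genes as a percent of their own 10-library mean (upper panel) and deposited column total in M (lower panel) by library, HOILKO left of WT. HOILKO 1 and WT 2, 3 and 4 are the 4 highest in both panels.

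The spread over the 10 libraries was near that of other genes at like levels. The coefficient of variation had a median of 11.1% in the 40 genes (quartiles 9.07% and 12.6%), 13.3% in all genes tested and 11.8% in the 9082 genes whose mean lay in the range of the 40. It was lowest for Psmd11 at 5.31% and highest for Psmg3 at 23.9%.

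Between the runs of mouse numbers, with genotype in the fit, 0 of 40 passed limma at an adjusted p under 0.05, beside 0.626% of all genes tested (0.309% lower and 0.317% higher in the later run). The log2 differences (later minus earlier run) lay below 0 for 37 of 40 genes, beside 51% of all genes tested, with a median of -0.13. At an unadjusted p under 0.05, 10 of 40 lay below 0, beside 7.55% of all genes tested, and 0 above it, beside 8.22%. Psma2, an alpha ring subunit, came closest. In the later run it was at 70.7 and 73.7 per M in HOILKO and 95.9, 76.8 and 79.2 per M in WT. In the earlier run it was at 83.2, 107 and 96.2 per M in HOILKO and 103 and 93.6 per M in WT. The log2 difference was -0.31 (limma adjusted p = 0.0919), and without WT 4 it was -0.37 (limma adjusted p = 0.0420). The share of all genes tested that passed without WT 4 is not given here, so that call has no background beside it.

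Psmd5, the cap chaperone, was the 1 gene of 40 whose runs did not overlap with the later run lower, beside 1.4% of all genes tested, and in 0 was it wholly higher, beside 1.45%. It was at 29.8 to 31.3 per M in the later run and 31.6 to 36.9 per M in the earlier run. In a fit with an interaction of genotype and run, the smallest limma adjusted p of the interaction among the 40 was 0.898, for Psmd5.

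The inducible subunits Psmb8, Psmb9 and Psmb10 replace Psmb5, Psmb6 and Psmb7 in the immunoproteasome, which interferons are known to induce. Psmb8 was at 37.8, 68.3, 55.9, 44.0 and 49.5 per M in HOILKO and 77.2, 51.0, 55.1, 44.4 and 36.8 per M in WT. Psmb9 was at 19.7, 28.4, 21.5, 17.7 and 19.3 per M in HOILKO and 31.1, 19.05, 14.6, 11.8 and 16.8 per M in WT. Psmb10 was at 21.9, 27.0, 25.5, 18.5 and 21.0 per M in HOILKO and 28.2, 23.3, 21.9, 20.5 and 19.3 per M in WT. WT 2, which goes against its label, was the highest library for all 3. The 3 female libraries (WT 2, HOILKO 2 and HOILKO 3) lay above every male library for each of these genes.

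As a ratio to its constitutive partner, each inducible subunit was compared by an exact two-sided permutation test over libraries, with Benjamini-Hochberg adjustment over the 3 ratios. In 10 libraries the log2 ratio Psmb8 to Psmb5 averaged -0.41 ± 0.28 in HOILKO and -0.60 ± 0.24 in WT (SD, n = 5 each; exact p = 0.302, adjusted 0.302). The ratio Psmb9 to Psmb6 averaged -2.02 ± 0.23 in HOILKO and -2.42 ± 0.53 in WT (exact p = 0.159, adjusted 0.238). For Psmb10 to Psmb7 the means were -1.80 ± 0.25 and -2.02 ± 0.21 (HOILKO and WT; exact p = 0.143, adjusted 0.238). None passed, where the smallest p of the 252 arrangements is 0.00794.

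Without WT 2 and HOILKO 1 the ratios Psmb8 to Psmb5 and Psmb9 to Psmb6 separated, but the groups then differed in the sex of their mice. HOILKO 2 and 3 were female, while HOILKO 4 and 5 and every WT library left were male. Among all libraries, the females WT 2, HOILKO 2 and HOILKO 3 had the highest values of each of the 3 ratios. The log2 ratio Psmb8 to Psmb5 averaged -0.29 ± 0.15 in HOILKO and -0.69 ± 0.15 in WT (SD, n = 4 each), a difference of 0.40 with an exact p of 0.0286, adjusted 0.0429. Every HOILKO library was above every WT library. Psmb9 to Psmb6 averaged -1.96 ± 0.21 in HOILKO and -2.64 ± 0.29 in WT, a difference of 0.68 with an exact p of 0.0286, adjusted 0.0429. The p of 0.0286 is the smallest that 70 arrangements can give. Psmb10 to Psmb7 had a difference of 0.37 (exact p = 0.0571, adjusted 0.0571). These calls rest on the libraries left out. Without WT 2 alone, Psmb9 to Psmb6 differed by 0.62 (exact p = 0.00794, adjusted 0.0238) and Psmb8 to Psmb5 by 0.28 (exact p = 0.119, adjusted 0.119), and without HOILKO 1 alone none of the 3 passed.

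Within the later run, which holds no library that goes against its label and only males, the differences were 0.25 for Psmb8 to Psmb5, 0.61 for Psmb9 to Psmb6 and 0.23 for Psmb10 to Psmb7, and within the earlier run they were 0.10, 0.05 and 0.13. A run of 2 against 3 libraries cannot give an exact p under 0.1. As single genes in the 8 libraries, Psmb9 had a log2 fold change of 0.47 (limma adjusted p = 0.226), Psmb8 0.21 (0.509) and Psmb10 0.10 (0.769). In the same 8 libraries all 4 tested macrophage markers lay above 0, with a median log2 fold change of 0.38. They were uneven, with Csf1r at 0.02 (limma adjusted p = 0.971) and Mrc1 at 0.30 (limma adjusted p = 0.878). Lyz1, which AT2 cells may express too, passed at 0.46 (limma adjusted p = 0.0488), and Cd68 was at 0.78 (unadjusted p = 0.000663, limma adjusted p = 0.0842). The part of these markers, and that of sex, in the ratios was not tested.

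**Figure D5:**
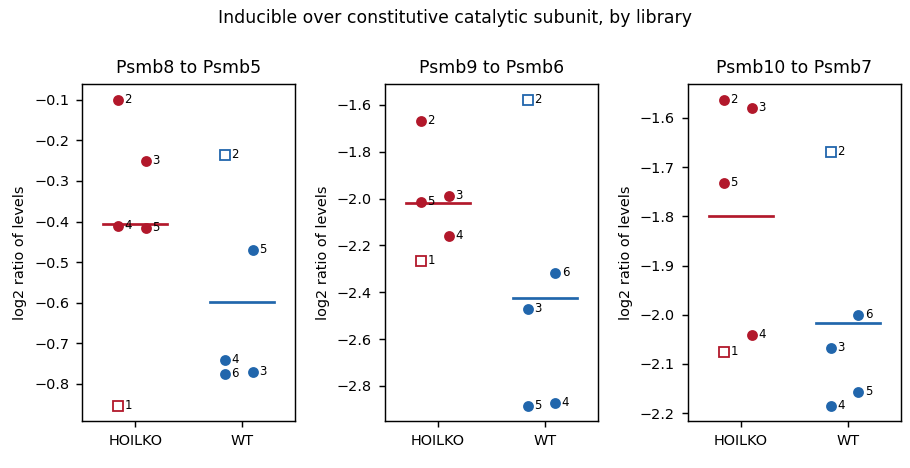
Log2 ratio of each inducible subunit to its constitutive partner by library, HOILKO left of WT, with group means; WT 2 and HOILKO 1 are drawn as open squares. In Psmb9 to Psmb6, WT 2 lies at -1.58, above the other 4 WT libraries, which lie between -2.89 and -2.32.

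Genes related to the proteasome, listed with the earlier results in view, gave no calls either. Of 15 further components, activators and partners that were tested, 0 passed in 10 libraries and 11 lay below 0, with a median of -0.05. In 8 libraries, too, 0 passed and 11 lay below 0, with a median of -0.05. Of all genes tested, 0% passed and 48.7% lay below 0 in 10 libraries, and 0.402% and 49.9% in 8. Sem1, the smallest cap subunit, was at 81.3, 76.7, 71.7, 67.8 and 65.2 per M in HOILKO and 82.8, 89.7, 96.3, 77.4 and 67.6 per M in WT (log2 fold change -0.18, limma adjusted p = 0.550). Pomp, the chaperone that matures the core, was at 57.5, 57.6, 63.6, 47.3 and 48.9 per M in HOILKO and 68.4, 66.1, 74.2, 61.7 and 48.0 per M in WT (log2 fold change -0.20, limma adjusted p = 0.581). Both showed the high WT 2 to 4 libraries of the core. Ecpas, a scaffold that binds proteasomes, had a log2 fold change of 0.12 (limma adjusted p = 0.628).

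Of 11 tested genes that control proteasome transcription, 0 passed and 2 lay below 0, with a median log2 fold change of 0.05 (0.06 in 8 libraries, with 0 passing and 2 below 0). The shares of all genes tested were 0% passing and 48.7% below 0 (0.402% and 49.9% in 8 libraries). Nfe2l1, the activator that answers loss of proteasome activity, was at 276, 276, 291, 280 and 294 per M in HOILKO and 261, 264, 263, 254 and 284 per M in WT. Only WT 6 lay within the HOILKO range, and the log2 fold change was 0.10 ± 0.06 (limma adjusted p = 0.612). Nfya, a subunit of the factor that binds CCAAT, was at a log2 fold change of 0.14 (limma adjusted p = 0.612), and Mafg, a small partner of Nfe2l1, at 0.15 (limma adjusted p = 0.641).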

How the data were processed

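Values come from 1 table of normalized counts, a signal with depth already evened out, deposited by the authors for 10 libraries. The tools named in the submitters' processing notes are bcl2fastq 2.17 and edgeR 3.14.0, beside the build mm10, with no role or order. Aligner, annotation, strand setting and type of normalization: not given in the sources used here. Column totals were 6.94 to 7.43 M. If the lowest cluster of values in a library stood for a single read, the depth would be roughly 7.86 to 13.7 M reads. Only 25.4% to 49.7% of low values fell within 0.1 of a multiple of that cluster's value. That depth is therefore uncertain, reads could not be recovered, and count models were not used.

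For this work each value was scaled by 7.14, the average sum of a column in M. The 12946 genes that reached 1 per M in 5 or more of the 10 libraries were tested by limma-trend (limma 3.58.1, R 4.3.3) on log2(value per M + 0.5), two-sided, HOILKO minus WT, with Benjamini-Hochberg adjustment over all of them. Fold changes on that scale understate those of low genes. The limma test was also run on simulated data with independent noise. Those data held no shift shared by the genes of a library and no run or sex effect. They therefore do not show how the test behaves where such effects are present. TMM factors (trimmed mean of log ratios) were computed in R, and tables and figures with Python 3.11.15 (pandas 2.3.3, numpy 2.4.6, matplotlib 3.10.9). Coordinates and exon lengths are those of GENCODE M21 (mm10), and promoter windows those of RefSeq (GRCm38.p6). Symbols were found for 16026 of 16154 IDs. The replicates are separate by mouse number only, and p-values measure the spread between these libraries.

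The members and all lists were chosen with earlier results of these data known. Named genes were the catalytic subunits, Psmd4, Psmd14, the member of each role with the highest level per kb and the 2 with the smallest p, and up to 3 genes a list; a gene this takes is not reported here. Genes named outside that rule were chosen after their values were seen. Alternatives were other pseudocounts, filters and scalings, a length correction, a replicate block, sample weights, each run alone and each library left out. For the comparisons of genotypes, run and sex were also each taken as a covariate.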

Additional observations from a re-analysis of the deposited data

Results flagged for a closer look

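Of 88 groups of 4 or more samples examined, 2 held a library far from the others, where chance gives about 1 in 20. Psmb11 was at 1.96 per M in WT 3, while the other WT libraries lay between 0 and 0.234 per M, and the gap was 0.881 of the whole range. Psmd14 was at 27.5 per M in WT 6, while the other WT libraries lay between 35.0 and 37.8 per M, and the gap was 0.725 of the range.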

How the results depend on the processing

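Replicate numbers 2 to 5 occur in both genotypes. The correlation of the deviations of same-numbered libraries, across genes, was 0.314, 0.0265, 0.0986 and 0.0792, and only HOILKO 2 correlated best with its own number, so the numbers were not taken as pairs. With the number as a replicate block, 2 members passed limma in 10 libraries (Psmb1 at -0.30, adjusted p = 0.0425, and Psmb7 at -0.33, adjusted p = 0.0414) and 2 in 8 libraries (Psmb7 at -0.38, adjusted p = 0.0274, and Psma7 at -0.40, adjusted p = 0.0294), where the median became -0.23. Of all genes tested, the block called 0.394% lower in 10 libraries and 0.966% lower in 8. In the other 10-library and 8-library alternatives the count remained 0.

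Leaving out 1 library gave medians of -0.16 to -0.10 (10 libraries), -0.19 to -0.09 (8 libraries) and -0.16 to -0.09 (runs). Between runs, 0 to 1 members passed, the 1 being Psma2 without WT 4, a setting for which the share of all genes tested is not given. Members whose groups did not overlap numbered 1 to 3 in 10 libraries and 3 to 13 in 8. The log2 ratio differences were 0.12 to 0.30 for Psmb8 to Psmb5, 0.29 to 0.62 for Psmb9 to Psmb6 and 0.16 to 0.30 for Psmb10 to Psmb7. Without WT 2 and HOILKO 1 together, they were 0.40 and 0.68 for the first 2, past the threshold. The core span per kb was 3.97-fold with principal transcript lengths.

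Of the 40 tested members, 31 kept the sign of their 10-library fold change under all alternatives run on it, and 9 did not. Psmg4 was at -0.0041 with TMM factors, -0.0016 with median-ratio factors, -0.045 with the block, -0.032 with sample weights, -0.077 in the later run alone and -0.066 to 0.057 with 1 library left out. Psmd11 was at -0.0059 with TMM factors, -0.0033 with median-ratio factors, -0.038 with the length trend removed (-0.037 with equal totals too), -0.0058 with sex as a covariate, -0.064 in the earlier run alone and -0.028 to 0.035 with 1 library left out. Psmg1 was at -0.088 with the block, -0.016 with sex as a covariate, -0.15 in the later run alone and -0.094 to 0.13 with 1 library left out. Psmg2 was at 0.017 with the length trend removed, also with equal totals, at 0.092 in the earlier run alone and at -0.13 to 0.074 with 1 library left out. With the length trend removed, Psma4 was at 0.010 and Psmd10 at 0.011 (0.011 and 0.012 with equal totals too). Psmc6 was at 0.0033 with equal totals, and Psmd5 at 0.045 in the later run alone. With 1 library left out, Psma2 was at -0.15 to 0.00086, Psma4 at -0.11 to 0.028, Psmc6 at -0.10 to 0.019 and Psmd5 at -0.063 to 0.013. The cause was not tested. Psmb11, below the filter on low values, rests on few reads.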

Other observations

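Genes that make and carry ubiquitin gave no calls. Of 12 tested genes for ubiquitin, its activating enzymes and the shuttle factors that bring substrates to the cap, 0 passed limma in 10 libraries, and 8 had a log2 fold change below 0, with a median of -0.04 (-0.03 in 8 libraries, with 0 passing and 8 below 0). Over all genes tested, 0% passed and 48.7% lay below 0 in 10 libraries, and 0.402% and 49.9% in 8. Ubqln4, a shuttle factor, was at 0.15 ± 0.08 (limma adjusted p = 0.597), and Sqstm1, the autophagy receptor for ubiquitin, at -0.09 ± 0.06 (limma adjusted p = 0.675).

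Other lung cell markers were measured beside the proteasome genes. AT1 markers summed to 2180 to 2589 per M in HOILKO and 2189 to 2830 per M in WT, club cell markers to 4800 to 8857 and 4549 to 9039 per M, and ciliated markers to 159 to 229 and 152 to 274 per M. Macrophage and monocyte markers, nearly all of it Lyz1, summed to 2298 to 3363 per M in HOILKO and 1818 to 4167 per M in WT. Fibroblast markers were at 1.39 to 8.34 per M in HOILKO and 5.62 to 10.6 per M in WT, and endothelial markers at 7.41 to 11.5 and 5.34 to 12.6 per M. Between the runs, Foxj1 and Tppp3, of the ciliated list, were higher in the later run (log2 0.61 and 0.44, limma adjusted p = 0.0169 and 0.0305), and Mrc1, of the macrophage list, was lower there (log2 -2.04, limma adjusted p = 0.00562).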
